A study of Mus musculus with 120 samples.

Results

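CC011 is 1 of 10 Collaborative Cross mouse strains whose livers were sequenced, and it is described here on the control diet against 7 other strains. The CC011 libraries were chosen by their labels: 6 of the 120 libraries of the series, 3 from females and 3 from males on the control diet. They were set against the 41 usable control-diet libraries of CC013, CC019, CC032, CC041, CC042 and CC043, with 6 each, and CC040, with 5. Every mouse in these groups had received for 12 weeks a low-fat diet with reduced sucrose, the ingredient-matched counterpart of a high-fat, high-sucrose diet (HF/HS). In the HF/HS diet milkfat gave 42% of the energy, cholesterol made up 0.2% and sucrose more than 30%, and the HF/HS libraries of the same 8 strains serve below as a second set of samples. The labels give no age, no time of day and no genotype beyond the strain name, and do not say whether the 3 libraries of each strain and sex are 3 mice. The p-values below with the library as the unit therefore describe the spread among libraries, which may be technical. Those with the strain as the unit describe the spread among strains. CC003 and CC060, prepared as another type of library, were not compared.

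Collaborative Cross strains are inbred mice whose genomes are mosaics of the genomes of several founder strains, so each strain is homozygous for 1 founder's stretch at almost every position. Strains therefore differ from each other in many genes at once, and a gene's RNA can differ because of a variant close to the gene or because of a regulator elsewhere. The liver makes most plasma proteins, breaks down drugs, steroids and bile acids, and much of its expression differs between females and males.

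Values are FPKM-like, meaning RNA fragments per length of transcript after scaling by the authors, and differences are given on the log2(value + 1) scale as CC011 minus the mean of the 7 other strains. Per library the values summed to 1105890 to 1338340 in CC011 and 964482 to 1365520 in the other strains, and 30.6% to 35.0% of rows were at 0 in CC011 against 32.2% to 35.5%. Read depth is unknown. Xist was at 32.9 to 122 in all females and at 0.00857 to 2.096 in all males. The hepatocyte genes Apoa1 (median 14335 in CC011 and 13969.8 in the other strains) and Ttr (9032 in CC011 and 6990.3 in the other strains) were abundant in both groups, whereas Alb was listed at 0 in all 47 libraries, so a 0 can mark a gene that was not estimated. Other hepatocyte markers went both ways. Medians were lower in CC011 for Serpina1c (4355 against 9080) and Cyp2e1 (4197 against 5678). They were higher for Fgb (6158 against 5154) and Tat (1737 against 1375). One CC011 library stood apart: in female 2 the summed level of neutrophil markers was 634, against 9.26 to 29.3 in the other 5 CC011 libraries and at most 146 in the other strains. Its summed Kupffer cell and macrophage markers were also the highest of the 6, at 1095 against 268 to 482, and its hepatocyte markers the lowest, at 48798.5 against 59289 to 79412. List counts that change most with this library are given with and without it. In whole-liver RNA, fewer cells of a type and less RNA per cell cannot be told apart.

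Averaging 1 or more across the 47 libraries, 12065 genes were tested, and 3 (0.0249%) lay outside the spread of the other 7 strains at an adjusted p under 0.05 when each strain counted as 1 value (limma, Benjamini-Hochberg). Without adjustment, 381 genes had a p under 0.05. Taking each of the other 7 strains in turn against the rest gave 2 (CC041) to 42 (CC042) genes. The 3 CC011 genes were Atxn3 and Fez2, both lower (0.0166% of genes), and Snord11, a short nucleolar RNA that was higher (0.00829%).

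Atxn3, on chromosome 12 (mm10, chr12:101918900-101958243), encodes ataxin-3, an enzyme that removes ubiquitin from proteins. Its values were 3.62, 3.12 and 2.65 in CC011 females and 2.87, 3.05 and 3.59 in CC011 males. The 41 libraries of the other strains ran from 8.13 to 13.01 (median 11.04), so all CC011 livers lay far below every other liver, with little spread in either group. The difference was -1.52 ± 0.112 (log2, SE over 8 strains; adjusted p = 0.0095, limma), -1.50 in females and -1.54 in males.

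Fez2, on chromosome 17 (chr17:78369211-78418152), belongs to a family of proteins that link cargo to the motor protein kinesin. Its values were 5.32, 6.88 and 6.06 in CC011 females and 6.61, 5.42 and 6.13 in CC011 males. In the other strains they ran from 16.2 to 28.4 (median 21.3), again without overlap. The difference was -1.65 ± 0.165 (log2, SE over 8 strains; adjusted p = 0.0338, limma), with -1.54 in females and -1.76 in males. Part of the Fez2 locus overlaps the annotated span of Crim1, and reads of overlapping genes can be assigned to either. Leaving out 1 strain raised the adjusted p of Fez2 to at most 0.139 (without CC013) and that of Atxn3 to at most 0.0542 (without CC043). Without CC043 no gene was called, against 3 with all 7 strains, and without CC013, CC019 or CC041 1 gene was called in each case.

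Snord11 rested on 1 library. It was at 4823 in CC011 female 1 and at 0 in all other 46 control libraries. Without that library it no longer had a mean of 1 and was not tested.

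A second description asked which genes separated CC011 from every other liver: 76 of the 12065 genes (0.630%) had no overlap between the 6 CC011 libraries and the 41 others. CC011 was above all of them for 35 (0.290%) and below all of them for 41 (0.340%). The same count was 59 (CC019) to 159 (CC032) for the other strains taken in turn, so CC011 is not set apart by the number of such genes. Their median absolute difference was 0.84, against 0.13 over all tested genes, which follows in part from how they were chosen. The size of each difference below is from a fit in which every library counted as a value. That fit called 38.8% of all genes and asks whether CC011 differs from the mean of these 7 strains, not whether it lies outside their range.

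**Figure D1:**
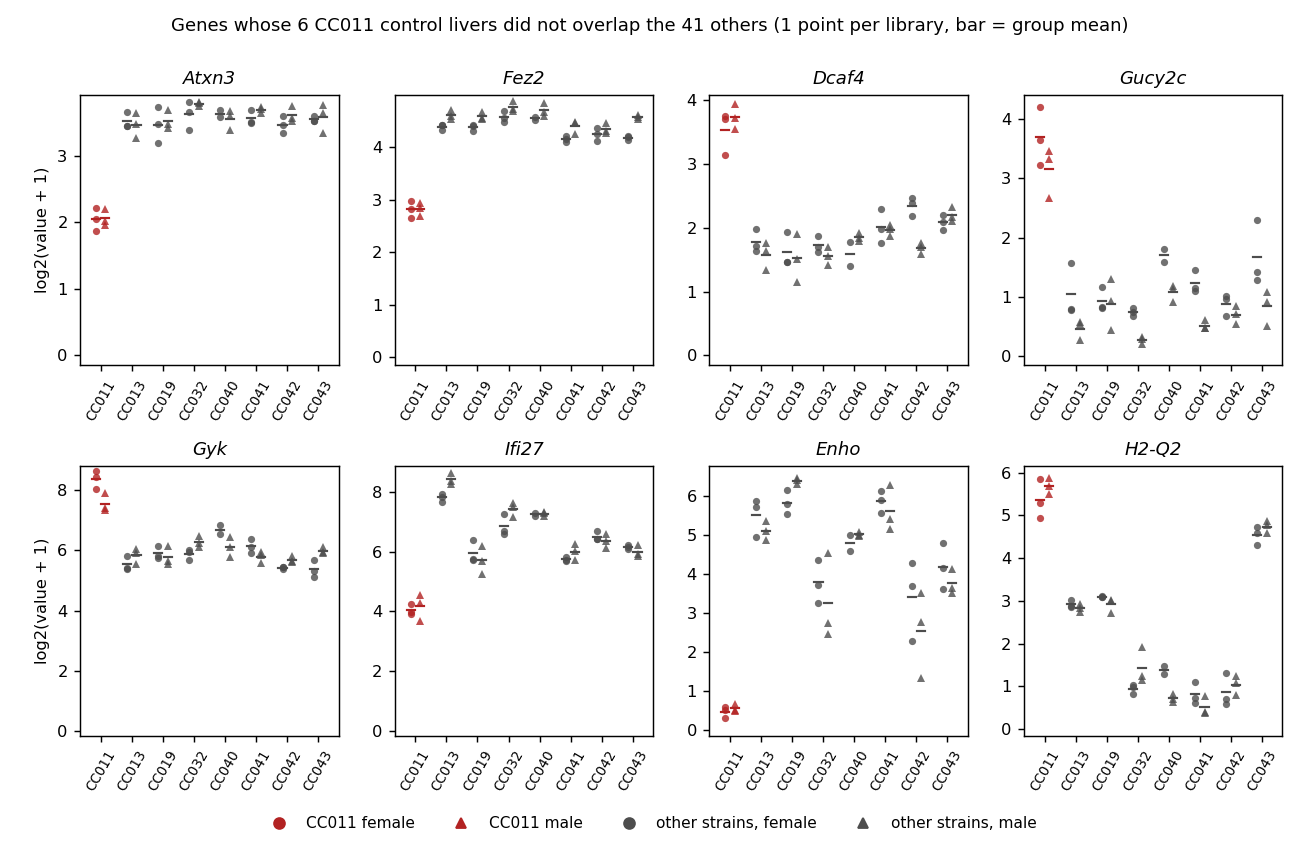
Values on the log2(value + 1) scale of 8 genes without overlap, 1 point per control-diet library, with CC011 in red at the left, circles for females, triangles for males and bars for group means. Atxn3 and Fez2 are low in the 6 CC011 livers and nearly level in the other 7 strains, whereas Enho, Ifi27 and H2-Q2 also vary widely among those 7.

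The 35 genes that were higher in CC011 include Gucy2c, which encodes guanylate cyclase C, the gut receptor for guanylin and uroguanylin that makes cyclic GMP. It was at 11.5, 17.4 and 8.41 in CC011 females and 9.01, 5.40 and 10.0 in CC011 males, against 0.155 to 3.90 (median 0.782) in the other strains. Every CC011 liver exceeded the highest other liver, a CC043 female. The filter mean included CC011, and Gucy2c passed it only through its CC011 level. With a mean of at least 1 required in the other 7 strains it was not tested, and 74 genes had no overlap. With the library as the unit the difference was 2.50 ± 0.127 (log2, SE; adjusted p = 8.23e-18, limma), and with the strain as the unit the adjusted p was 0.0919.

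Gyk, an X-linked gene, encodes glycerol kinase, which prepares glycerol for use in lipid and glucose synthesis. Its values were 397, 262 and 347 in CC011 females and 168, 237 and 160.1 in CC011 males. The other strains held 33.9 to 114 (median 57.0), so the groups did not overlap, and all 3 CC011 females were above all 3 CC011 males. The difference was 2.07 ± 0.0986 (adjusted p = 1.39e-18, library as the unit), 2.52 in females and 1.62 in males. Sgk1, the serum- and glucocorticoid-regulated kinase, was at 61.5 to 99.3 in CC011 and at 10.8 to 41.7 (median 20.4) in the other strains, a difference of 1.83 ± 0.123.

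Dcaf4 encodes a substrate receptor of a ubiquitin ligase. It was at 11.9, 7.77 and 12.4 in CC011 females and 14.2, 12.1 and 10.6 in CC011 males, and at 1.23 to 4.52 (median 2.45) in the other strains. The other 7 strains were close to each other, and the strain-level adjusted p was 0.093. The difference was 1.80 ± 0.0885 (adjusted p = 2.73e-18, library as the unit).

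H2-Q2, a class I histocompatibility gene on chromosome 17, had the largest positive difference of the 35, 3.47 ± 0.101. Its values were 29.8, 56.9 and 38.4 in CC011 females and 50.6, 44.1 and 58.0 in CC011 males, and 0.291 to 28.0 (median 1.49) in the other strains. CC043, with a mean of 24.1, came close, while CC032, CC040, CC041 and CC042 had means of 1.36, 1.04, 0.607 and 0.972. Class I genes are near-identical copies that also differ between founder haplotypes, so reads may be shared or lost between them, and its level is uncertain.

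Fam213b, which encodes a prostaglandin F synthase, was at 41.3 to 107 in CC011 and at 4.72 to 39.3 (median 9.94) in the other strains. CC011 males were above CC011 females. Sytl1, an effector of the vesicle protein Rab27, was at 4.04 to 6.94 against 0.0997 to 3.96 (median 0.353). Like Gucy2c and Adgrg1, which is also among the 35, it passed the filter only through its CC011 level. Tc2n was at 3.44 to 6.50 against 0.107 to 2.61 (median 0.664), with CC011 males again above CC011 females. Hapln4, a protein that links hyaluronan to proteoglycans, was at 6.32 to 9.73 against 0.646 to 5.29 (median 2.33). Also higher were Otud1 (1.09), a deubiquitinase, Large (0.99), a glycosyltransferase of dystroglycan, and the zinc finger gene Zfp709 (0.93). The pseudogene row Vmn2r-ps129 (2.11) is given as a value only. The smallest difference among the 35 was that of Phka1, a subunit of phosphorylase kinase, at 0.34.

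Enho had the largest negative difference of the 41 genes that were lower. It encodes adropin, a secreted peptide studied for its role in energy balance. Its values were 0.507, 0.237 and 0.412 in CC011 females and 0.407, 0.567 and 0.404 in CC011 males, and those of the other strains were 1.51 to 86.9 (median 29.6). The lowest other library, a CC042 male, was still above every CC011 library, and the other strains ranged from a mean of 8.59 in CC042 to 69.6 in CC019. The difference was -4.14 ± 0.250 (adjusted p = 3.23e-15, library as the unit), and the strain-level adjusted p was 0.853.

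Ifi27 and Ifi27l2a, 2 interferon-inducible genes whose annotated spans overlap on chromosome 12, were both lower. Ifi27 was at 14.9, 18.0 and 14.0 in CC011 females and 11.8, 18.4 and 22.2 in CC011 males, and at 37.2 to 392 (median 83.6) in the other strains. Ifi27l2a was at 0.190 to 1.39 in CC011 and at 2.28 to 78.3 (median 16.6) elsewhere. Their differences were -2.56 ± 0.109 and -3.49 ± 0.183, and because reads of the overlapping spans could go to either row, the 2 rows are not separate evidence. Their neighbour Ifi27l2b went the other way, at 17.0 to 86.9 in CC011 against 0.120 to 18.0 (median 2.50), a difference of 3.39 ± 0.208 with overlapping libraries.

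Cox16 encodes an assembly factor of cytochrome oxidase, and the row Synj2bp-cox16 is a read-through transcript across it. Cox16 was at 17.2, 18.2 and 21.4 in CC011 females and 24.8, 25.6 and 25.6 in CC011 males, and at 40.6 to 78.2 (median 51.5) in the other strains. The read-through row was at 1.33 to 4.79 in CC011 and at 6.44 to 26.0 (median 14.7) elsewhere. Both CC011 ranges lay below the ranges of the other strains, with differences of -1.20 ± 0.0533 and -1.94 ± 0.0992, and these rows can also share reads.

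Sdc2, a heparan sulfate proteoglycan of the cell surface, was at 35.6 to 48.2 in CC011 and at 84.9 to 143 (median 111) in the other strains. Its difference was -1.37 ± 0.0585 and its strain-level adjusted p 0.0919. Cyp3a13, a drug-metabolising cytochrome P450, was at 30.4 to 44.0 in CC011 and at 59.8 to 189.9 (median 113) elsewhere. Fam92a, at 0.923 to 1.70 against 3.68 to 17.7 (median 11.4), and the metalloreductase gene Steap2, at 0.0609 to 0.208 against 0.628 to 4.39 (median 1.67), were near the floor of the scale in CC011. Mpp1, on the X chromosome, was at 4.92 to 6.98 against 10.1 to 28.5 (median 15.8), and Dnph1, a nucleotide hydrolase, at 3.66 to 5.07 against 6.61 to 16.8 (median 11.5). Gstz1, an abundant enzyme of tyrosine breakdown, showed a smaller difference of -0.66 ± 0.0530, with 411 to 558 in CC011 and 587 to 952 (median 825) elsewhere.

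The position of the 76 genes in the genome was not used in choosing them. Chromosome 12 held 21 of them, 4.98% of its 422 tested genes, against 0.630% over all chromosomes. Chromosome 17 held 10 (1.59% of 629), the X chromosome 9 (2.59% of 348), chromosome 8 held 9 (1.34% of 670) and chromosome 9 held 7 (1.07% of 657). None lay on chromosomes 3, 11, 13, 14, 18 and 19, or among the 5 tested genes of the Y chromosome. A Y gene near 0 in females and high in males, such as Ddx3y, could not be without overlap, because both sexes were pooled. The 5-Mb window with the most was on chromosome 12 between 100 and 105 Mb, where 6 of 50 tested genes had no overlap: Tc2n and Syne3 were higher, and Fbln5, Atxn3, Ifi27l2a and Ifi27 lower. The next was on chromosome 17 between 43 and 48 Mb with 5 of 63, where Yipf3 was higher and Dnph1, Pex6, 1700001C19Rik and Tomm6 were lower. Chromosome 12 between 83 and 88 Mb held 4 of 56, with Dcaf4 and Angel1 higher and Pomt2 and Gstz1 lower. On chromosome 8 between 68 and 73 Mb all 4 such genes of 96 (Hapln4, Colgalt1, Zfp709 and Large) were higher. Some of the chromosome 12 rows have overlapping spans and can share reads, so they are not all separate evidence. These pairs are Ifi27 and Ifi27l2a, Cox16 and Synj2bp-cox16, Pomt2 and Gstz1, and Cenpo and Ptrhd1. No test was made of this clustering, and the founder origin of these stretches was not analysed here.

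**Figure D2:**
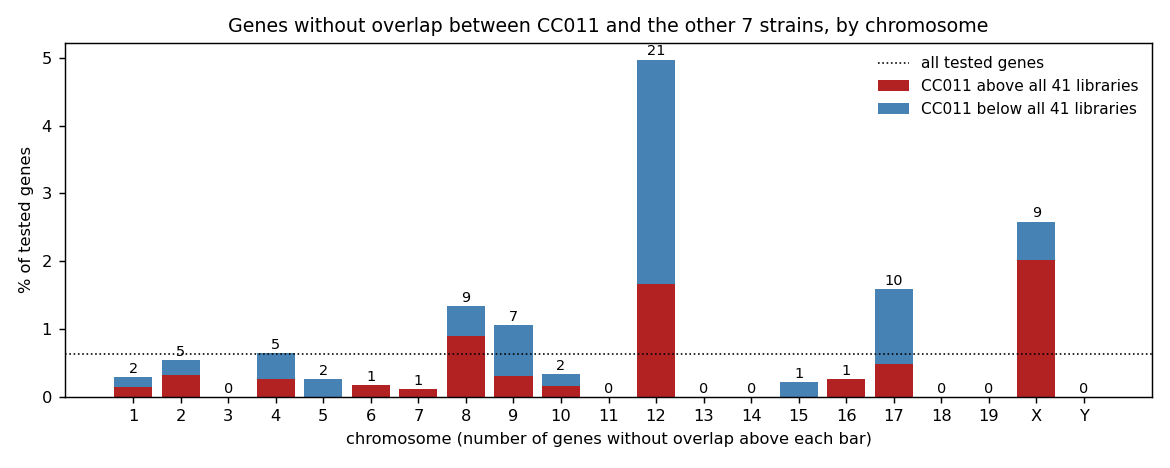
Share of each chromosome's tested genes for which the 6 CC011 control livers lay entirely above (red) or below (blue) the 41 other livers, with the number of genes above each bar and the share over all tested genes as a dotted line. Chromosome 12 stands highest, with 21 genes, some of them with overlapping spans, followed by the X chromosome with 9.

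The 47 HF/HS libraries of the same strains took no part in choosing the 76 genes. One of them, CC011 HF/HS female 1, stood apart: Hp and Hpx were listed at 0 and Lcn2 was at 21576, against at most 901 in the other strains. All 76 had the same sign on the HF/HS diet, and all 76 were called in that direction with the library as the unit. The 76 include Gucy2c, Sytl1 and Adgrg1, which passed the filter only through their CC011 control level. Both counts were also 76 without CC011 HF/HS female 1. Of all tested genes, 37.4% were called there in the direction of their control-diet difference. The 76 had all been called on the control diet with the library as the unit. Of the 4683 genes called in that way, 96.0% had the same sign and 68.5% were called again in the same direction. Of the 12065 genes, 80.2% had the same sign on both diets. On the HF/HS diet 70 genes (0.580%) had no overlap, and 41 were shared in the same direction, which is 53.9% of the control-diet set and 58.6% of the HF/HS set. On the HF/HS diet 8 genes (0.0663%) passed when each strain was 1 value: Atxn3, Fez2, Cox16, Synj2bp-cox16 and Gyk, and the short RNAs Mir3074-1, Mir324 and Snora61. Without CC011 HF/HS female 1 there were 9, with Atxn3, Fez2, Cox16, Synj2bp-cox16 and Gyk again among them.

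Atxn3 was at 3.47, 2.63 and 2.40 in CC011 females and 3.44, 3.52 and 2.22 in CC011 males on the HF/HS diet, and at 8.79 to 14.6 (median 10.99) in the other strains. Its difference there was -1.60, close to the control-diet value. Fez2 was at 4.34 to 8.16 against 19.4 to 33.2 (median 25.7), with a difference of -1.87. Gyk was at 166 to 313 against 37.2 to 88.8 (median 62.7), with 1.85. Enho was at 0.109 to 0.616 against 0.482 to 98.8 (median 10.8), so that the groups overlapped on this diet, with a difference of -3.23.

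**Figure D3:**
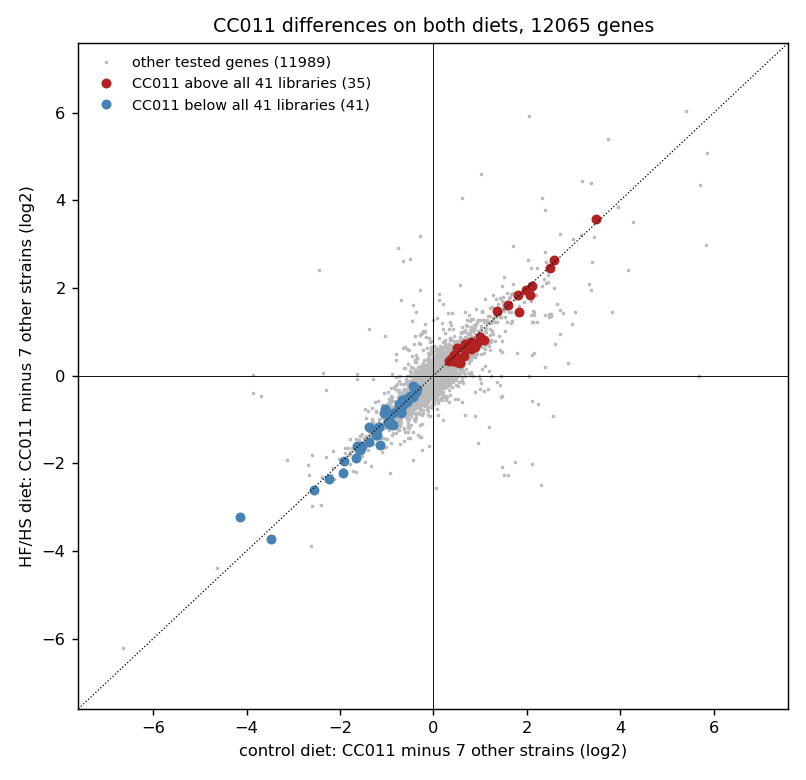
Difference between CC011 and the mean of the 7 other strains (log2), horizontal for the control diet and vertical for HF/HS, 1 point per tested gene, with the 35 genes above all other control livers in red, the 41 below all in blue and equality as a dotted line. All 76 coloured points lie in the lower left or upper right of the plot.

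Many more genes differed between CC011 and the average of the other strains when each library counted as a value. With this test 2266 genes were higher (18.8%) and 2417 lower (20.0%), 38.8% together. The other strains taken in turn gave 5104 (CC042) to 6586 (CC032) calls. Of the 4683 genes, 4497 had the same sign on the HF/HS diet and 3210 were called there in the same direction, with 3 called in the opposite one.

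The largest of these differences were often shared with other strains. Of the 24 genes with the 12 largest differences in each direction, 5 had no overlap, and for 13 at least 1 other strain lay within 1 log2 unit of CC011 or beyond it. Tff3, a trefoil peptide of mucous epithelia, had the largest positive difference, 5.86 ± 0.263. Its values were 22.4, 147 and 29.5 in CC011 females and 1273, 709.6 and 838 in CC011 males, and 0 to 186 (median 0.904) in the other strains. CC011 males were far above CC011 females, and CC043, with a mean of 75.1, was the next strain. Cyp46a1, the cholesterol 24-hydroxylase, was at 35.7 to 90.0 in CC011, with a mean of 88.1 in CC040 and of at most 1.84 in the other 6 strains. Ces2b, a carboxylesterase, had a mean of 83.8 in CC011, 95.0 in CC032 and 111 in CC040, and means of at most 4.73 in the other 5 strains.

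Serpina3c, a secreted protease inhibitor, had the largest negative difference, -6.65 ± 0.179. It was at 0.677 to 1.24 in CC011, had means of 2.05 in CC019 and 2.23 in CC032, and of 658 to 1722 in the other 5 strains. Cyp2c39 was at 1.67 to 14.8 in CC011, at a mean of 15.7 in CC042 and of at least 225 elsewhere. The metallothionein genes Mt1 and Mt2, which bind zinc and copper, differed by -3.13 ± 0.484 and -2.68 ± 0.618, and by -3.50 and -3.19 without CC011 female 2, which had 107 for Mt1 against 4.18 to 33.8 in the other 5. The beta globin row Hbb-bs was near 0 in CC011 and in CC019, CC032, CC040 and CC042, and at means of 41.3, 74.0 and 47.05 in CC013, CC041 and CC043.

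**Figure D4:**
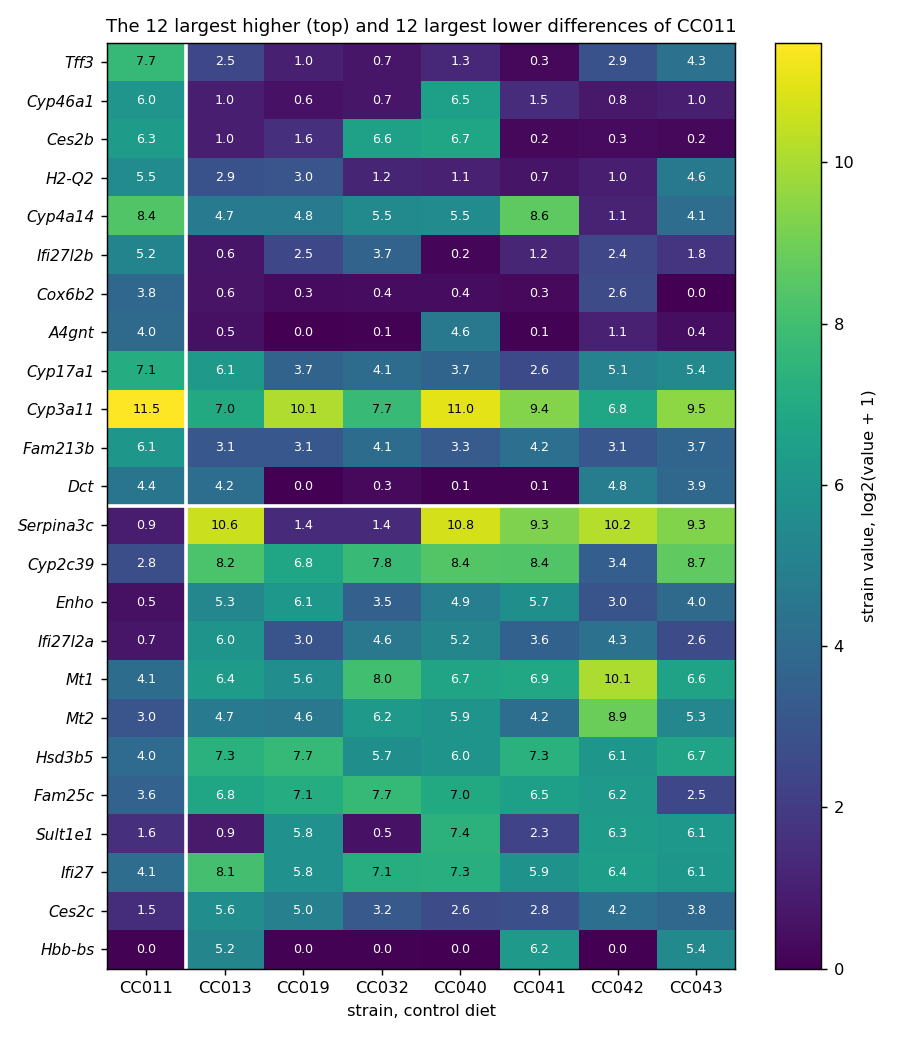
Strain values on the log2(value + 1) scale for the 12 largest positive (upper block) and 12 largest negative (lower block) differences of CC011, with CC011 in the first column. Rows such as Cyp46a1, Ces2b and Serpina3c show 1 or 2 other strains at the CC011 level, whereas Tff3, Fam213b and Enho show none.

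The gene lists were written from general knowledge, but with earlier results of these data known. They were read against these shares of 18.8% higher and 20.0% lower over all genes, and against an all-gene median of -0.01. The bile acid genes were lower more often than higher: 11 of 19 tested were lower, 2 were higher, and their median was -0.36. Cyp7b1, which opens the alternative route of bile acid synthesis, was at 21.3, 19.8 and 16.8 in CC011 females and 102, 203 and 85.3 in CC011 males, against 29.5 to 1054 (median 199) in the other strains. The 3 CC011 females lay below all 41 other libraries, whereas the CC011 males overlapped with them. The difference was -1.90 ± 0.217 (adjusted p = 1.31e-08). The uptake carriers Slco1a1 (-1.79), Slco1a4 (-1.15), Slc10a1 (-0.49) and Slco1b2 (-0.36), the export pump Abcb11 (-0.31) and the 12-alpha-hydroxylase Cyp8b1 (-0.52) were also lower. Cyp7a1, the rate-limiting enzyme of the classical route, was at 14.6 to 133 in CC011 and 5.16 to 334 (median 70.6) elsewhere, and did not pass the test (adjusted p = 0.404). The conjugating genes Baat (0.34) and Slc27a5 (0.17) were the 2 that were higher. On the HF/HS diet 10 of the 19 were lower and none was higher, with 2627 of all 12065 genes (21.8%) lower there. Without CC011 HF/HS female 1 these counts were 8 and 3.

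Several of these genes also belong to the list of genes that are usually higher in males. Of its 18 tested members 7 were lower and 2 higher, with a median of -0.34, and without CC011 female 2 the counts were 8 lower and 3 higher. Hsd3b5, a steroid dehydrogenase, was at 5.81, 1.93 and 3.72 in CC011 females and 74.5, 48.6 and 50.7 in CC011 males, against 9.11 to 559.6 (median 101) elsewhere, and its difference was -3.29 in females and -2.03 in males. Slco1a1 differed by -3.17 in females and by -0.41 in males. Cyp2d9 (-1.32) was lower, and Gstp1 (0.63) and Mup20 (1.22) were higher. Of 24 genes usually higher in females, 4 were higher and 6 lower. Cyp2b13 was at 214, 96.7 and 265 in CC011 females and 0.176, 0.304 and 0.569 in CC011 males, so that its positive difference lay in females (3.43) and not in males (-0.09). Its strain value over both sexes (log2) was 3.95 in CC011 and 2.49 to 3.67 in CC013, CC019, CC032, CC040 and CC041. In CC042 and CC043 it was 0.10 and 0.16, so these 2 strains add much to the difference. Cyp17a1, at 278, 150.0 and 323 in CC011 females and 110.3, 67.8 and 62.5 in CC011 males, differed by 1.32 in females and 4.11 in males. Sult1e1, the estrogen sulfotransferase, was lower (-2.59 ± 0.350), with a mean of 3.44 in CC011, 0.844 in CC013, 0.814 in CC032, 6.73 in CC041 and at least 68.8 in the other 4 strains.

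The cytochrome P450 genes of the Cyp2 and Cyp3 families moved in both directions, with 9 of 36 higher and 10 lower. Cyp3a11, the main enzyme of the Cyp3a family, was at 3742, 2248 and 3386 in CC011 females and 1339, 6436 and 2231 in CC011 males, against 17.0 to 3433 (median 603) in the other strains, and its difference was 2.70 ± 0.352 with control food and 0.96 with HF/HS food (1.47 without CC011 HF/HS female 1). Among conjugating enzymes 11 of 39 were higher and 8 lower (12 and 6 without CC011 female 2), and among carboxylesterases and aldo-keto reductases 6 of 24 were higher and 8 lower. Ces2c was lower, at 0.921 to 3.35 against 1.80 to 163 (median 11.3), in contrast to Ces2b, and these neighbouring paralogs can share reads.

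Genes of the immune system also moved in both directions. Of 29 antigen presentation genes 8 were higher and 8 lower. H2-K1, a classical class I gene, was at 84.4, 186 and 101 in CC011 females and 169, 140.1 and 181 in CC011 males, against 61.2 to 1455 (median 906) in the other strains, where CC043 was the only strain below CC011, with a mean of 72.7. H2-T23 (-1.75) was lower, and H2-T10 (1.53), H2-Q4 (0.72) and H2-D1 (0.43) were higher, under the same limit on shared reads as H2-Q2. CC013 lay above CC011 for H2-T10, H2-Q4 and H2-D1, CC032 and CC040 did so for H2-D1, and CC043 lay below CC011 for H2-T23. H2-D1 did not pass without CC019 (adjusted p = 0.1055, limma). Without CC011 female 2 the antigen presentation counts were 6 higher and 15 lower. Of 32 interferon response genes 5 were higher and 12 lower, with a median of -0.20, and without that library 5 and 15. Mx2, an antiviral GTPase, was at 18.7 to 32.8 against 0.439 to 68.7 (median 3.46), a difference of 2.09 ± 0.0903, with CC042 above CC011 at a mean of 62.7. On the HF/HS diet 7 of these 32 were higher and 5 lower, and without CC011 HF/HS female 1 the counts were 7 and 10.

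Acute phase genes, which the liver induces in inflammation, had 8 of 22 higher, none lower and a median of 0.28. Hp, which encodes haptoglobin, was at 4427, 14967 and 4209.8 in CC011 females and 5645, 4650.2 and 6986 in CC011 males, against 1488 to 7561 (median 3489) in the other strains. Lcn2, lipocalin 2, was at 60.7, 1765 and 109 in CC011 females and 101, 6.08 and 97.8 in CC011 males, against 0.106 to 866 (median 23.3). Both were highest in CC011 female 2, the library with the neutrophil markers. Without it, 6 were higher and 1 was lower with a median of 0.15, and the difference of Lcn2 was 1.64 without it and 2.37 with it, while Orm2 no longer passed (0.67, adjusted p = 0.0671). Orm1 (0.74), Hp (0.66) and Hamp (1.49), which encodes the iron hormone hepcidin, were still higher. Of 29 complement genes 12 were higher and 6 lower, and without this library 8 and 7. Hc, which encodes complement C5, was at 118, 161 and 105 in CC011 females and 140.0, 154 and 158 in CC011 males, against 98.0 to 842 (median 364) in the other strains, with CC019 at a mean of 131 like CC011, and the difference was -1.29 ± 0.0772. The positive difference of C1s1 (0.90) rested on CC013, whose mean was 0.300 against 237 in CC011, and without CC013 it was -0.21. The difference of Cwc22 (-0.70) rested on CC042, where the mean was 288, with 6.96 in CC011, and was 0.045 without CC042.

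Lists of energy and lipid metabolism follow. None of the 26 genes of fatty acid oxidation was lower and 2 were higher, Vnn1 (0.75) and Cyp4a14, at 975, 155 and 544 in CC011 females and 160.2, 539.5 and 168 in CC011 males, against 0.223 to 835 (median 33.2) in the other strains, of which CC041 was at the CC011 level. For Vnn1, CC032 and CC040 were above CC011, and it did not pass without CC043 (adjusted p = 0.184, limma). Without CC011 female 2 the list had 5 higher and none lower. Of 24 genes of cholesterol synthesis and uptake 3 were higher, among them Hsd17b7 and Sc5d, and none lower, with a median of 0.06, and 2 without CC011 female 2. On the HF/HS diet 19 were higher and none lower, with a median of 0.74, against 17.0% of all genes higher there, and without CC011 HF/HS female 1 there were 17 and none, with a median of 0.68. Sqle, for example, differed by -0.01 with control food and by 1.26 with HF/HS food (0.83 and adjusted p = 0.0827, limma, without CC011 HF/HS female 1), although no gene of this list was called in the test of the difference between diets with the strain as the unit. Among respiratory chain genes 2 of 20 were higher and 3 lower, and without CC011 female 2 the counts were 13 and 0. Of 17 clock genes 2 were higher, among them Cry1 (0.63), and 1 was lower, Nr1d1 (-1.79), at 0.536 to 2.08 in CC011 and 0.433 to 36.9 (median 6.87) elsewhere. The time of day at which livers were taken is not given in the sources used here.

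**Figure D5:**
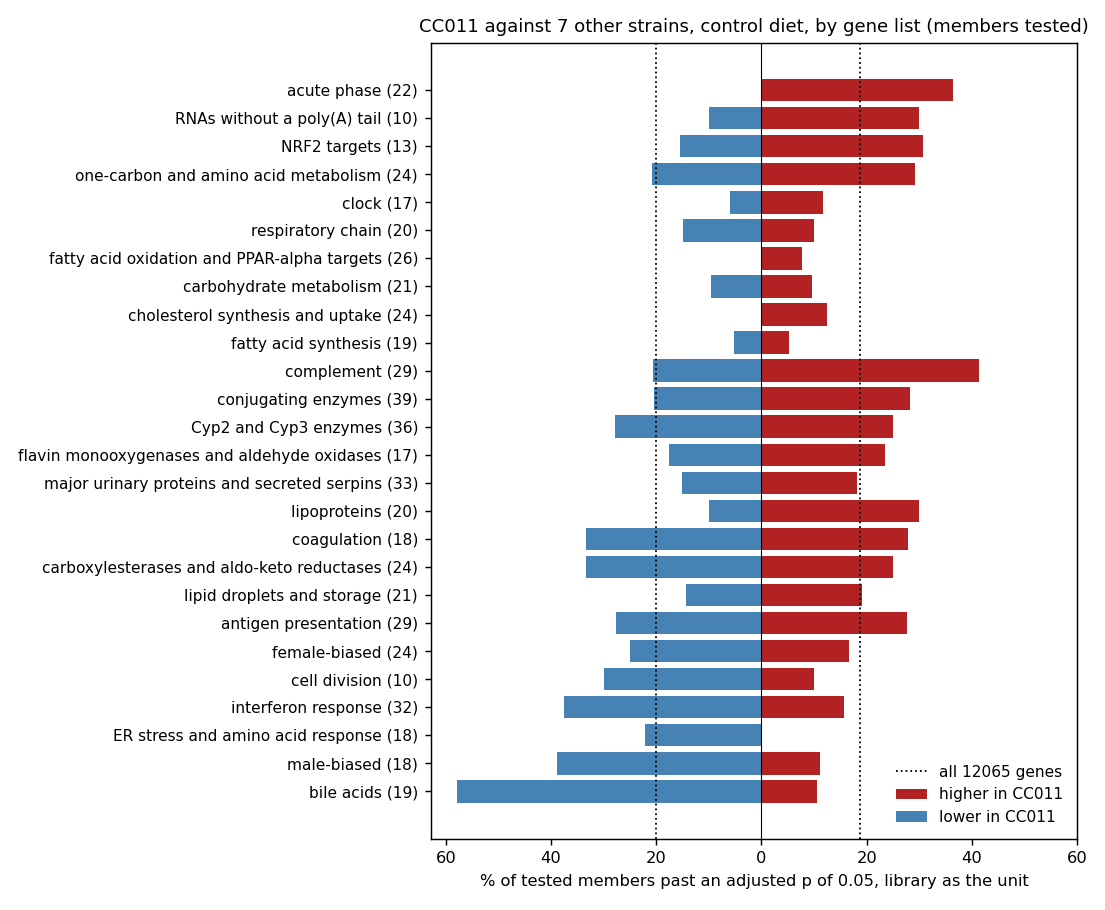
Share of the tested members of each list with at least 10 of them (number in brackets) that were higher (red, right) or lower (blue, left) in CC011 at an adjusted p under 0.05 with the library as the unit, with dotted lines at the shares over all genes, 18.8% and 20.0%. Marker lists are not drawn. Among the lists drawn, bile acid genes reach farthest to the left with 11 of 19 and complement genes farthest to the right with 12 of 29, all with CC011 female 2 included.

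For the other lists the counts were as follows. Lipoprotein genes had 6 of 20 higher and 2 lower, and 7 and 1 without CC011 female 2. Genes of one-carbon and amino acid metabolism had 7 of 24 higher and 5 lower, and 9 and 4 without it, and coagulation genes 5 of 18 and 6, and 4 and 5 without it. NRF2 targets, which answer oxidative stress, had 4 of 13 higher and 2 lower, and 7 and 2 without CC011 female 2. Genes of the ER stress and amino acid response had none of 18 higher and 4 lower. Lipid droplet genes had 4 of 21 higher and 3 lower, carbohydrate genes 2 of 21 each way, and fatty acid synthesis genes 1 of 19 each way. The lower one was Scd1, the stearoyl-CoA desaturase, at 1843, 1886 and 4561 in CC011 females and 0, 3724 and 10502 in CC011 males, against 1035 to 11118 (median 5433) in the other strains. Its difference of -2.36 ± 0.849 rested on CC011 male 1, in which it was listed at 0, and without that library it was -0.26 (adjusted p = 0.534).

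Marker lists of other cell types gave the following values, and their part in the results above was not tested. Of 11 markers of Kupffer cells and macrophages 5 were lower and 1 was higher, with summed levels of 268 to 1095 in CC011 and 269 to 1807 elsewhere, and without CC011 female 2 the counts were 8 and 0. Marco, a scavenger receptor, was at 0.241 to 4.68 against 0.570 to 96.2 (median 7.88). Of 11 endothelial markers 5 were higher and 3 lower, with a median of 0.16. Stab2, a scavenger receptor of sinusoidal endothelium, was higher, at 30.2 to 36.7 against 14.9 to 40.1 (median 25.4), and Lyve1, a hyaluronan receptor, lower, at 0.313 to 2.43 against 1.16 to 22.9 (median 9.90), with CC043 at a mean of 1.51. Of 5 lymphocyte markers 4 were lower, with summed levels of 3.44 to 19.6 in CC011 and 3.71 to 51.4 elsewhere. Of 14 stellate cell and matrix markers 2 were higher and 4 lower, with summed levels of 221 to 400 against 267 to 529.

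Females and males were also compared with the other strains separately. Setting strain values against each other, the test called 10 genes (0.0829%) for females and 8 (0.0663%) for males. Of these 6 and 5 were microRNA or nucleolar RNA rows that were above 0 in 1 to 3 of the 6 CC011 libraries. The others were Atxn3, Fez2, Cox16 and Tff3 in females, and Atxn3, Fez2 and Gucy2c in males. As said above, Gucy2c passed the filter only through its CC011 level. Tff3 was called in females (5.10, adjusted p = 0.0138) and had a larger difference in males (6.61, adjusted p = 1), where its SE was 2.40, against 0.519 in females. In the test of the male minus female difference itself 5 genes (0.0414%) passed, all of them short RNAs above 0 in a single CC011 library. With the library as the unit 198 genes (1.64%) passed, 125 (1.04%) with a higher and 73 (0.605%) with a lower male minus female difference in CC011.

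The change of the CC011 difference between diets was tested with the strain as the unit, and 5 genes (0.0414%) passed, all lower on the HF/HS diet. They were Hp and Hpx, which encode the hemoglobin carrier haptoglobin and the heme carrier hemopexin, and the short RNAs Mir16-1, Mir3066 and Snord11. Hp was at 0, 7008 and 5753 in CC011 females and 4908, 4623 and 4007 in CC011 males on the HF/HS diet. Both calls rested on CC011 HF/HS female 1, in which both genes were listed at 0. Without it the change was -0.39 for Hp and -0.54 for Hpx (adjusted p = 0.996 for each, limma), and the only genes that passed were Mir3066 and Snord11.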

How the data were processed

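Liver RNA was extracted as total RNA with a miRNeasy kit and 500 ng went into each library, per the labels' protocols, which name both a Ribo-Zero and an mRNA kit. The submitters' processing notes name Cufflinks 2.2.1, TopHat2 2.1.1, Bowtie2 2.2.5.0 and the mm10 build. The deposited values are FPKM-like and were rescaled by the authors: every library has its 75th percentile near 10.0. They are not counts, so read depth and counting error are unknown. Whether reads were counted by strand is not given in the sources used here. Coordinates are mm10, 1-based. Of 24883 rows, 1 lacked a value and was dropped. The control library CC040 female 3 was left out because it equals an HF/HS library, CC040 female 1, in 24882 rows, and that HF/HS library was left out too. Rows averaging 1 or more across the 47 control libraries were tested on the log2(value + 1) scale, 12065 in all, of which 161 share a symbol with another row.

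The main test was limma 3.58.1 in R 4.3.3 (statmod 1.5.0) with 1 value per strain, the mean of its female and male means, a moderated variance with trend and robust settings, and Benjamini-Hochberg adjustment at 0.05. Because it called 3 genes, a fit with the library as the unit and a count of genes without overlap were added to the report after that count was seen. The 12 largest differences in each direction, the called members of each list with the lowest p (up to 3), and genes of the densest windows are named, for unique symbols that are not predicted, pseudogene or short RNA rows; this was applied to the genes without overlap and to the calls with the library as the unit. Other named genes were chosen after their values were seen, and some genes are not reported here. The strains, the lists and the marker lists were chosen with earlier results of these data known. The fits were run on simulated data with normal spread, where the only requirement was that median estimates lay near the set differences. That check set no limit on false or missed calls. Alternatives covered the pseudocount, the filter, the scaling, the prior, the unit, the replicate block and leaving out libraries and strains.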

Additional observations from a re-analysis of the deposited data

Results flagged for a closer look

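Male and female differences of CC011 from the other strains differed for 5 short RNA rows (limma, strain as the unit, adjusted over 12065 genes). The male minus female difference was -2.48 for Mir16-1, 2.35 for Mir1966, -2.88 for Mir3066, 2.85 for Mir3101 and -4.08 for Snord11. Each was above 0 in 1 of 6 CC011 libraries and in 0 of 41 others, so each value rests on a single library.

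The difference of CC011 from the other strains changed between the diets for 5 rows. The HF/HS minus control value was -2.49 for Hp (adjusted p = 0.0178, limma) and -2.62 for Hpx (adjusted p = 0.0418, limma), both listed at 0 in CC011 HF/HS female 1. Without that library the values were -0.39 and -0.54, and neither passed. It was -1.24 for Mir16-1, -1.44 for Mir3066 and -2.04 for Snord11, which were above 0 in a single CC011 control library.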

How the results depend on the processing

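The number of genes called with the strain as the unit depended on the processing. On the control diet it was 3, and 9 with a pseudocount of 5, 75 with no filter, 8 with a prior without trend or robust settings and 10 with 16 strain and sex values and the strain as a block. With a mean of at least 1 required in the other 7 strains it was 2. With the library as the unit it was 4683. Leaving out a library or a strain gave 0 to 8, with 0 without strain CC043 and 8 without CC011 female 3. In females the count was 10, and 1 with a pseudocount of 0.1, 3253 with the library as the unit and 8 to 17 without single libraries. In males it was 8, and 3 with that pseudocount, 3192 with the library as the unit and 5 to 9 without single libraries. For the male minus female difference it was 5, and 0 with that pseudocount, 198 with the library as the unit and 4 to 8 without single libraries. On the HF/HS diet it was 8, and 5 with a pseudocount of 0.1, 18 with one of 5, 4682 with the library as the unit and 8 to 11 without single libraries. For the difference between diets it was 5, and 2 with a pseudocount of 0.1, 3 with one of 5 and 3 with quantile normalization. Genes without overlap numbered 76, and 76 to 110 when a library or strain was left out. The calls with the library as the unit ran from 4074 to 4925 in the same runs. Leaving samples out cannot create overlap, so only the filter could lower the count without overlap. That count was 51 with a mean of at least 5, 74 with a mean of at least 1 in the other 7 strains and 75 with CC040 female 3 kept. It was 83 with median-ratio size factors, 94 with quantile normalization and 101 with no filter. Of the single named genes, 2 changed sign. C1s1 was at 0.90, with -0.21 (without strain CC013) to 1.14 when a library or strain was left out, and Cwc22 at -0.70, with -0.89 to 0.045 (without strain CC042). The cause was not tested beyond the strain means given.

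The runs without CC011 female 2 and without CC011 HF/HS female 1 were chosen after seeing the data; without the second, the calls for the difference between diets numbered 2.

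Library numbers were checked for pairing of the samples: 345 pairs with the same number had a mean correlation of 0.0185 (-0.319 to 0.231), 690 pairs with different numbers -0.00928, and 23 of 47 libraries matched their own number best. No chance level was computed for these values, so the check does not decide whether the numbers mark weak pairing. With the number as a replicate block and the library as the unit the counts were 4791 on the control diet, 3348 in females, 3283 in males, 243 for the male minus female difference and 4682 on the HF/HS diet.

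With 8 strains the strain-level test sees few differences, and the library-level test does not show that CC011 lies outside the spread of strains. Founder origin, depth and time of day were not analysed here.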
